A study of Mus musculus with 9 samples.

Results

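The genes described here are Trp53, which encodes the transcription factor p53, its inhibitors Mdm2 and Mdm4, and the p53 target genes Cdkn1a, Ccng1, Sesn2, Phlda3, Trp53inp1, Zmat3 and Btg2. These 10 genes were chosen by name, and a probe set was assigned to a gene where the platform annotation gave it exactly 1 gene symbol. This gave 20 of the 45101 probe sets of the array, for 9 of the 10 genes out of 18161 genes with a probe set of their own. Trp53 was not analysed here. Of a gene's probe sets the one brightest on average over the 9 arrays stood for the gene, and the other 11 are described beside it.

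The 9 expression arrays, with total RNA from sorted mouse cells, comprise 3 NIC tumors, 3 abnormal non-malignant samples and 3 controls, from a study of T cell acute lymphoblastic leukemia and of overexpressed NOTCH1 outside malignancy. The labels do not spell out NIC, and give no genotype, strain, age or sorted population for any of the 3 groups. Separate animals are not stated either, and the p-values therefore measure only the spread between these samples, which may be technical. Values are log2 signals as deposited, a difference of 1 is 2-fold, and precision is limited by the small number of arrays.

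p53 is kept at a low level in unstressed cells because MDM2, a ubiquitin ligase, marks it for degradation and MDM4, a relative of MDM2, blocks its ability to activate genes. After DNA damage or oncogene activity p53 is released and activates genes that halt the cell cycle, limit growth signalling or start cell death, and Mdm2 is itself one of its targets, which closes a feedback loop. In the thymus p53 is best known for removing thymocytes with unrepaired breaks in their DNA.

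p53 binds DNA as a tetramer at 2 adjacent copies of a half-site of 10 bases. RefSeq promoter windows (GRCm38.p6, 250 bases before to 50 bases after a transcription start) were at hand for 8 of the 10 genes, with 10 windows in all, and Trp53inp1 and Zmat3 had none. The windows were searched for the p53 consensus full site, which is 2 half-sites with no bases between them and at most 1 mismatch in the 20 bases. The consensus half-site reads the same on both strands, so that both were covered. Of these 10 windows, 2 held a match, against 29 of all 32851 windows (0.0883%). They are shown because they carry the matches to the p53 consensus in the cyclin-dependent kinase inhibitor gene Cdkn1a and in the cyclin G1 gene Ccng1. The full site stands in capitals. Cdkn1a has 2 windows, and the site is in the upstream one (chr17:29090729-29091028, + strand), with its first base at −51 from the transcription start of that window. In Ccng1 the first base is at −195 (chr11:40755237-40755536, − strand).
Cdkn1a: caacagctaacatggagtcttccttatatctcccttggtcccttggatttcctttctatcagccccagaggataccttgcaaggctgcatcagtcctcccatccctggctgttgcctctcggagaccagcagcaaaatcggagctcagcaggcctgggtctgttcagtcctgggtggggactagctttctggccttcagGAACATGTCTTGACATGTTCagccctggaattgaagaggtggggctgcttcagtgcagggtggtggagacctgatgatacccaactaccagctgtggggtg
Ccng1: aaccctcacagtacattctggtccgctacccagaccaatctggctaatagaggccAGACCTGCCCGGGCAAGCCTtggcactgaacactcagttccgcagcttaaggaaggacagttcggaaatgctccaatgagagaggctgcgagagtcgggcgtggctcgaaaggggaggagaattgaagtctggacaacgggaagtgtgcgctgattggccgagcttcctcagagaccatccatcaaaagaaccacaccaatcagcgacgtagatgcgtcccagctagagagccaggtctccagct
Both full sites have 1 mismatch to the consensus. The second Cdkn1a window, which lies downstream of the first (chr17:29093519-29093818), had no match, nor had those of Trp53, Mdm2, Mdm4, Sesn2, Phlda3 and Btg2. The windows of Trp53 and Mdm2 each held 1 exact half-site, and 8.36% of all windows held at least 1. A match in these letters is a description and not a measurement of binding.

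The arrays were not alike within the tumor group. Tumor array 3 gave the lowest value of 6 of the 9 members, and also of 26.5% of all genes, with the highest value for 25.1% of them. The SD of its values over all probe sets was 1.97, against 2.12 to 2.19 on the other 8 arrays. Of all pairs of arrays, numbers 2 and 3 of the non-malignant group were nearest each other (SD of their gene-by-gene differences 0.16, next pair 0.3). Notch1 and its targets Hes1 and Dtx1 averaged 10.07 to 12.04 in the tumors. Their mean was 11.92 to 12.22 in the non-malignant samples and 8.08 to 8.3 in controls. Hes1 and Dtx1 were the 2 of 3 called higher in each of the first 2 groups against controls. Notch1 itself gave 12.92, 9.001 and 10.81 on tumor arrays 1, 2 and 3, and 9.81 to 10.34 in controls. Tumor array 2 thus lay below every control. The log2 fold change of Notch1 was 0.86 in the tumors against controls (limma adjusted p = 0.448). In the non-malignant samples against controls it was 2.86 (adjusted p = 0.0801), and neither passed. On the non-malignant arrays Notch1 gave 12.88, 12.97 and 12.87, all above every control. The spread in the fit comes from all groups together, the uneven tumors included. Markers of CD4+CD8+ thymocytes had a mean log2 signal of 9.04 to 10.94 in the tumors, 11.59 to 11.85 in the non-malignant samples and 12.16 to 12.58 in controls. Of the 8 measured, 6 were called lower in the tumors against controls and 2 against the non-malignant samples. The marker means of tumor array 3 and tumor array 1 were the ends of the tumor range. Myeloid markers averaged 5.98 to 7.33 in the tumors, 6.63 to 6.71 in the non-malignant samples and 5.73 to 5.94 in controls, with 1 of 11 called higher in each of the tumors and the non-malignant samples against controls. Erythroid markers averaged 6.09 to 7.07, 6.17 to 6.22 and 5.7 to 5.84 in the same order of groups, with 0 of 3 called by limma (2 in the tumors and 1 in the non-malignant samples at an unadjusted p under 0.05). Tumor array 2 held the highest mean of both lists. The B cell marker means were 5.69 to 6.43, 5.98 to 6.32 and 5.89 to 6.19, with 1 of 5 called lower in the tumors and 1 higher in the non-malignant samples against controls, and 1 lower in the tumors against the non-malignant samples. The thymic stroma markers averaged 5.4 to 6.01, 5.4 to 5.47 and 5.45 to 5.58, with 0 of 4 called by limma and 0 at an unadjusted p under 0.05. The means of the last 4 lists also took in genes too dim to test. They cover 12 myeloid, 5 erythroid, 6 B cell and 8 thymic stroma genes. The part of any of these marker levels in the results on p53 pathway genes was not tested, and fewer cells of a type and less RNA per cell cannot be told apart here.

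Among the 9 measured p53 pathway genes Mdm4 alone was called between groups. Whether the counts of called members depart from the shares of all genes called was not tested. The inhibitor gene Mdm4 was 2.87-fold lower in the NIC tumors than in controls (log2 fold change −1.52, limma adjusted p = 0.0123). It was the 1 member of 9 called, at an adjusted p under 0.05, in the tumors against controls, where 15.7% of all 13288 genes tested were called in either direction and 7.19% were called lower. At an unadjusted p under 0.05 there were 4 of 9 members and 32.2% of all genes. No member was called in the non-malignant samples against controls by limma (2 of 9 at an unadjusted p under 0.05), where 3.53% of all genes were called and 13.3% reached that unadjusted p. None was called between tumors and non-malignant samples either (2 of 9 at an unadjusted p under 0.05), against 4.23% of all genes called and 25.9% at that unadjusted p. Of the 9 members, 7 had a negative log2 fold change in the tumors against controls, with a median of −0.59, while the median of all genes was 0.06. The non-malignant samples against controls also had 7 negative values, with a median of −0.21 against 0.01 for all genes. These 2 comparisons share the 3 control arrays. Between tumors and non-malignant samples 5 of 9 were negative, with a median of −0.32 against 0.03 for all genes. On no array did any of the 9 fall under the filter for dim probe sets, set at each array's 40th percentile.

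**Figure D1:**
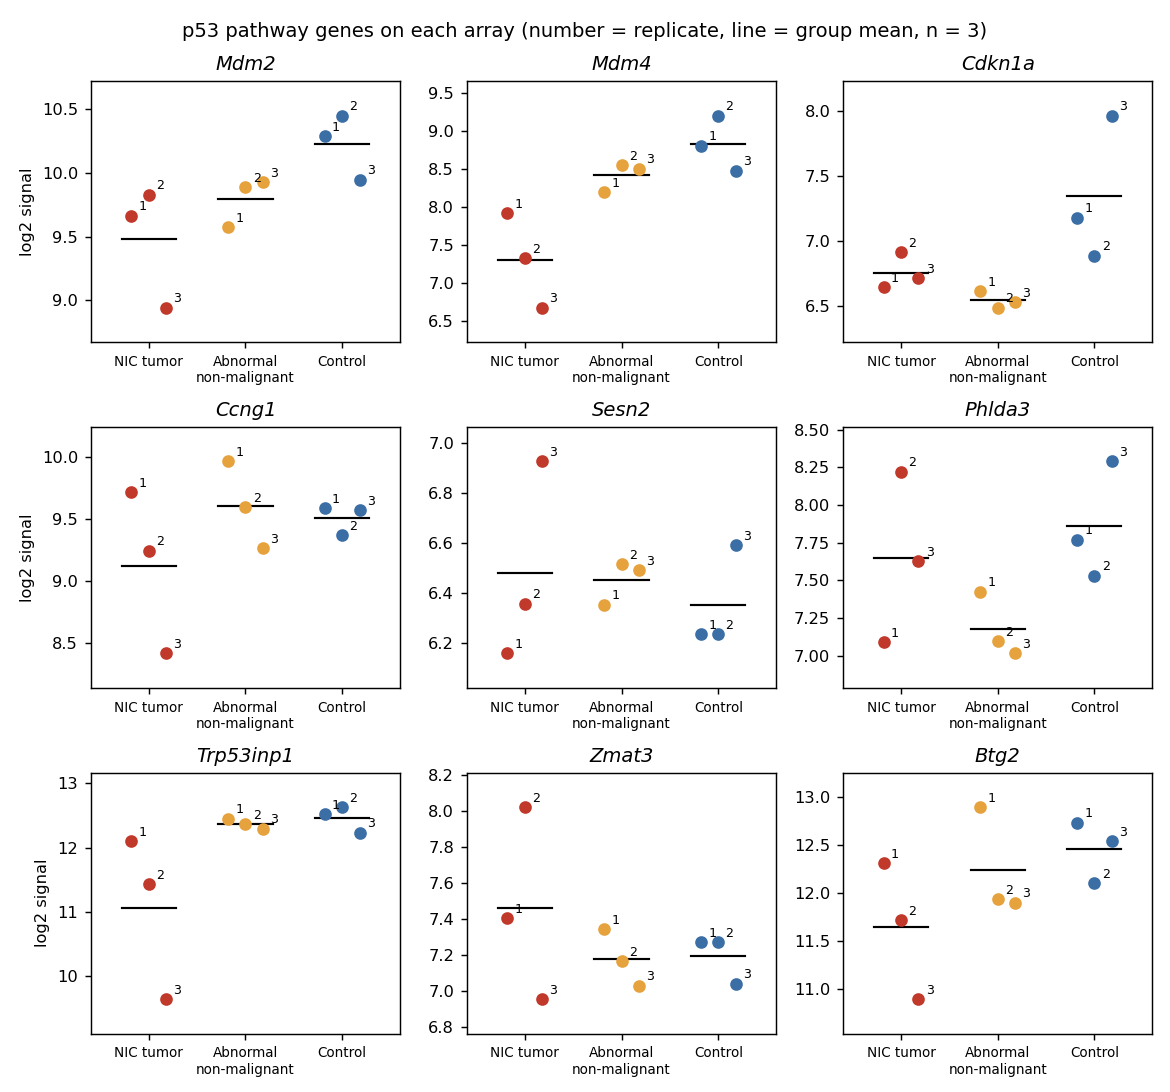
Log2 signal (vertical axis, its range set for each gene) of the 9 measured p53 pathway genes on each array, with the NIC tumors at the left, abnormal non-malignant samples in the middle and controls at the right. Points are arrays with their replicate number and lines are group means (n = 3). Tumor array 3 is the lowest point in 6 of the 9 panels, among them Mdm2, Mdm4, Trp53inp1 and Btg2.

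Mdm4 (chr1:132986105-133030587), the inhibitor related to Mdm2, gave 7.92, 7.33 and 6.68 on NIC tumor arrays 1, 2 and 3, 8.19, 8.55 and 8.5 on the non-malignant arrays and 8.8, 9.2 and 8.47 on the control arrays. Every tumor lay below every other array, and the non-malignant samples and controls overlapped. The group means were 7.31 ± 0.62 in tumors, 8.41 ± 0.19 in non-malignant samples and 8.83 ± 0.36 in controls (SD, n = 3 each). The log2 fold change of tumors against controls was −1.52 ± 0.31 (SE, limma, 95% confidence interval −2.21 to −0.83). Against the non-malignant samples it was −1.11 ± 0.31 and did not pass (adjusted p = 0.0729), though it passed without tumor array 1 (−1.41, adjusted p = 0.00817). In the non-malignant samples against controls it was −0.41 (adjusted p = 0.726).

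The call of Mdm4 rests on 1 of its 4 probe sets. The probe set with the highest mean is 1460542_s_at, and in Affymetrix names the suffix _s_at marks probes that can match more than 1 transcript. The other 3, 1419558_at, 1458223_at and 1453982_at, had log2 fold changes of 0.08, −0.02 and 0.07 in the tumors against controls, with 95% confidence intervals that together run from −0.43 to 0.58. They were dimmer, with control means of 6.56, 6.56 and 5.825 against 8.83 for 1460542_s_at. Whether probe sets at that level could show a fall of the same size was not tested. Probe set 1419558_at gave 6.46, 6.47 and 6.99 in the tumors, 6.32, 6.97 and 6.72 in the non-malignant samples and 6.58, 6.75 and 6.35 in controls, so that all 3 groups overlapped. In a fit of all probe sets with 1 gene symbol, in which 12.9% were called in the tumors and 2.51% in the non-malignant samples against controls, only 1460542_s_at passed among the 4 (adjusted p = 0.0177). With the mean of the 4 probe sets as the gene level the log2 fold change was −0.35 and did not pass (adjusted p = 0.094). The call also ended without control 2, at a log2 fold change of −1.33 (adjusted p = 0.0512), and held without any other single array, tumor array 3 included (−1.20).

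Over the 9 arrays the genes with the profile most like that of Mdm4, by the root mean square distance of log2 values after each gene's own mean was removed, were Macf1 (0.12), Ogt (0.15) and Stk38 (0.16).

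Mdm2 (chr10:117688875-117710758), the ubiquitin ligase of p53, gave 9.66, 9.83 and 8.94 in the tumors, 9.57, 9.89 and 9.93 in the non-malignant samples and 10.29, 10.45 and 9.95 in controls. All 6 arrays of tumors and non-malignant samples lay below all 3 controls, although non-malignant array 3 and control 3 were nearly level. Its log2 fold change was −0.75 ± 0.25 (SE) in the tumors against controls (adjusted p = 0.0718) and −0.43 ± 0.25 in the non-malignant samples against controls (adjusted p = 0.569), so that neither passed. Without tumor array 1 the tumors passed (−0.84, adjusted p = 0.0476), and without tumor array 3 the value was −0.48. A second probe set, 1427718_a_at, gave −0.58 and −0.38 in the same 2 comparisons, with overlapping groups in both. The third, 1457929_at, lay above the filter on only 2 arrays and was not tested.

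**Figure D2:**
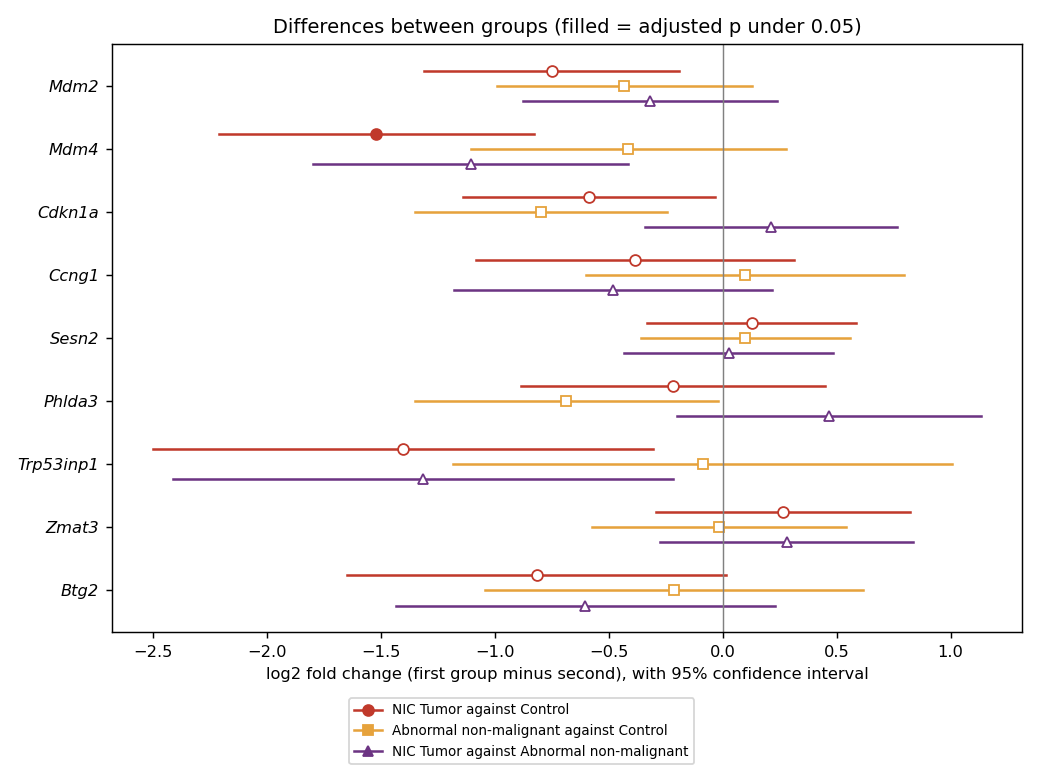
Log2 fold change (horizontal axis) of each measured p53 pathway gene in the 3 comparisons, with lines for the 95% confidence interval from limma and filled symbols where the adjusted p was under 0.05. The single filled symbol is Mdm4 in the NIC tumors against controls at −1.52, and the intervals of Sesn2 and Zmat3 span 0 in all 3 comparisons.

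Among the targets that act on the cell cycle, Cdkn1a (chr17:29090979-29100722), which encodes the cyclin-dependent kinase inhibitor p21, gave 6.65, 6.91 and 6.72 in the tumors, 6.62, 6.49 and 6.53 in the non-malignant samples and 7.18, 6.89 and 7.97 in controls. All non-malignant arrays lay below all arrays of the other 2 groups, although tumor array 1 and non-malignant array 1 were nearly level. Tumor array 2 overlapped with control 2. The log2 fold change was −0.8 ± 0.25 (SE) in the non-malignant samples against controls (adjusted p = 0.149) and −0.59 ± 0.25 in the tumors against controls (adjusted p = 0.136), and neither passed. Without control 3, the highest array, these values were −0.49 and −0.28. With array weights the non-malignant samples passed (−0.87, adjusted p = 0.00705). The second probe set, 1421679_a_at, gave −0.35 and −0.1, and its groups overlapped in every comparison. Between tumors and non-malignant samples Cdkn1a differed by 0.21, with a 95% confidence interval from −0.34 to 0.76.

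Ccng1 (chr11:40748552-40755309) encodes cyclin G1, a partner of protein phosphatase 2A that acts on MDM2. It gave 9.71, 9.24 and 8.41 in the tumors, 9.96, 9.59 and 9.26 in the non-malignant samples and 9.58, 9.37 and 9.57 in controls, and the groups overlapped in every comparison. Its log2 fold change was −0.39 in the tumors against controls (95% confidence interval −1.08 to 0.31) and 0.1 in the non-malignant samples against controls (−0.6 to 0.79). Without tumor array 3 the first value was −0.03. The other 2 probe sets gave 0.26 and −0.13 in the tumors against controls.

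Btg2 (chr1:134074865-134079155), which encodes an antiproliferative protein that promotes messenger RNA decay, gave 12.31, 11.72 and 10.89 in the tumors, 12.89, 11.93 and 11.9 in the non-malignant samples and 12.73, 12.1 and 12.53 in controls. Tumor array 1 overlapped with controls on this probe set, 1416250_at, and the log2 fold change of −0.82 ± 0.37 (SE) in the tumors against controls did not pass (adjusted p = 0.162). The second probe set, 1448272_at, gave 10.56, 10.2 and 8.83 in the tumors, 11.87, 11.09 and 11.17 in the non-malignant samples and 11.14, 11.63 and 11.46 in controls. There every tumor lay below every other array, and in the fit of all probe sets it fell by 1.55 on the log2 scale in the tumors against controls (adjusted p = 0.039, 12.9% of probe sets called). Against the non-malignant samples it stood at −1.51 without passing (adjusted p = 0.0871, 1.83% of probe sets called).

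**Figure D3:**
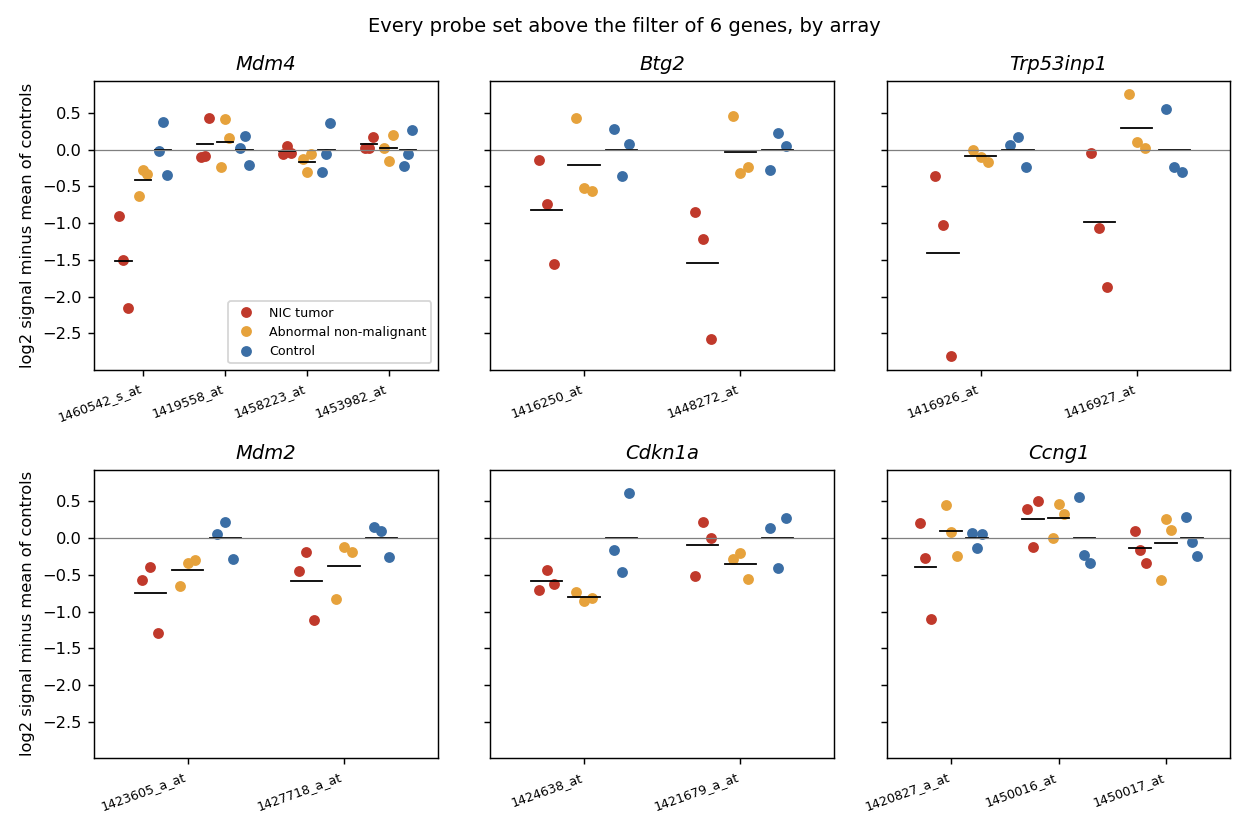
Log2 signal minus the mean of the 3 controls (vertical axis) for every probe set above the filter of Mdm4, Btg2, Trp53inp1, Mdm2, Cdkn1a and Ccng1, with NIC tumors, non-malignant samples and controls from left to right within each probe set. Points are arrays and short lines group means. Both probe sets of Btg2 and of Trp53inp1 have their lowest point in a tumor, while in Mdm4 the tumors are low on 1460542_s_at and near the control mean on the other 3 probe sets.

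Trp53inp1 (chr4:11156441-11174379), which encodes a stress-induced partner of p53 in cell death and autophagy, had the second largest log2 fold change among the members in the tumors against controls. It gave 12.1, 11.43 and 9.65 in the tumors, 12.45, 12.37 and 12.3 in the non-malignant samples and 12.52, 12.63 and 12.23 in controls. Every tumor lay below every other array, and tumor array 3 lay far below the other 2 tumors. The log2 fold change was −1.4 ± 0.49 (SE) against controls (adjusted p = 0.0832) and −1.31 ± 0.49 against the non-malignant samples (adjusted p = 0.136), so that neither passed. Without tumor array 3 the first value was −0.69. Without tumor array 1 both passed, at −1.92 (adjusted p = 0.00979) and −1.83 (adjusted p = 0.0157). On the second probe set, 1416927_at, the tumors gave 10.29, 9.28 and 8.47, the non-malignant samples 11.09, 10.45 and 10.36 and controls 10.88, 10.1 and 10.03. In this probe set the tumors lay below the non-malignant samples on every array and overlapped with controls.

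The remaining targets differed little or in other ways. Phlda3 (chr1:135766085-135769134), which encodes a lipid-binding protein that keeps the kinase AKT from the membrane, gave 7.09, 8.22 and 7.63 in the tumors, 7.42, 7.1 and 7.02 in the non-malignant samples and 7.77, 7.53 and 8.29 in controls. All non-malignant arrays lay below all controls (log2 fold change −0.69 ± 0.3 (SE), adjusted p = 0.355), and the tumors overlapped with both other groups. Sesn2 (chr4:132492804-132510456), which encodes sestrin 2, a brake on the growth kinase complex mTORC1, gave 6.16, 6.36 and 6.93 in the tumors, 6.35, 6.51 and 6.49 in the non-malignant samples and 6.24, 6.24 and 6.59 in controls. Its log2 fold changes lay between 0.03 and 0.13 over the 3 comparisons, with 95% confidence intervals that together run from −0.43 to 0.59, and its second probe set gave 0.24 in the tumors against controls. Zmat3 (chr3:32334792-32365665), which encodes an RNA-binding zinc finger protein, gave 7.4, 8.02 and 6.95 in the tumors, 7.34, 7.16 and 7.03 in the non-malignant samples and 7.27, 7.27 and 7.04 in controls. Its tumors spanned the range of both other groups, with log2 fold changes of 0.27 against controls (95% confidence interval −0.29 to 0.82) and 0.28 against the non-malignant samples. With array weights, which let arrays count unequally, Zmat3 was called higher in the tumors, at 0.70 against controls (adjusted p = 0.0139) and 0.79 against the non-malignant samples (adjusted p = 0.00304). With the same weights Phlda3 was called higher in the tumors than in the non-malignant samples, at 1.01 (adjusted p = 0.00305), and lower in the non-malignant samples than in controls, at −0.83 (adjusted p = 0.0106). Tumor array 2 was the highest tumor for both genes. Without it, and without weights, Zmat3 stood at −0.016 in the tumors against controls and 0.0003 against the non-malignant samples. Phlda3 then stood at 0.18 in the tumors against the non-malignant samples.

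Groups that did not overlap were counted as well. In the tumors against controls 3 of 9 members (Mdm2, Mdm4 and Trp53inp1) lay wholly below and 0 wholly above, against 14.3% and 18.2% of all genes. Against controls the non-malignant samples had 3 of 9 (Mdm2, Cdkn1a and Phlda3) wholly below and 0 above, against 9.16% and 17% of all genes. Between tumors and non-malignant samples Mdm4 and Trp53inp1 lay wholly below and Cdkn1a, by a narrow margin, wholly above, against 14.8% and 12.3%. An exact permutation test of 3 arrays against 3 cannot give a two-sided p under 0.1.

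**Figure D4:**
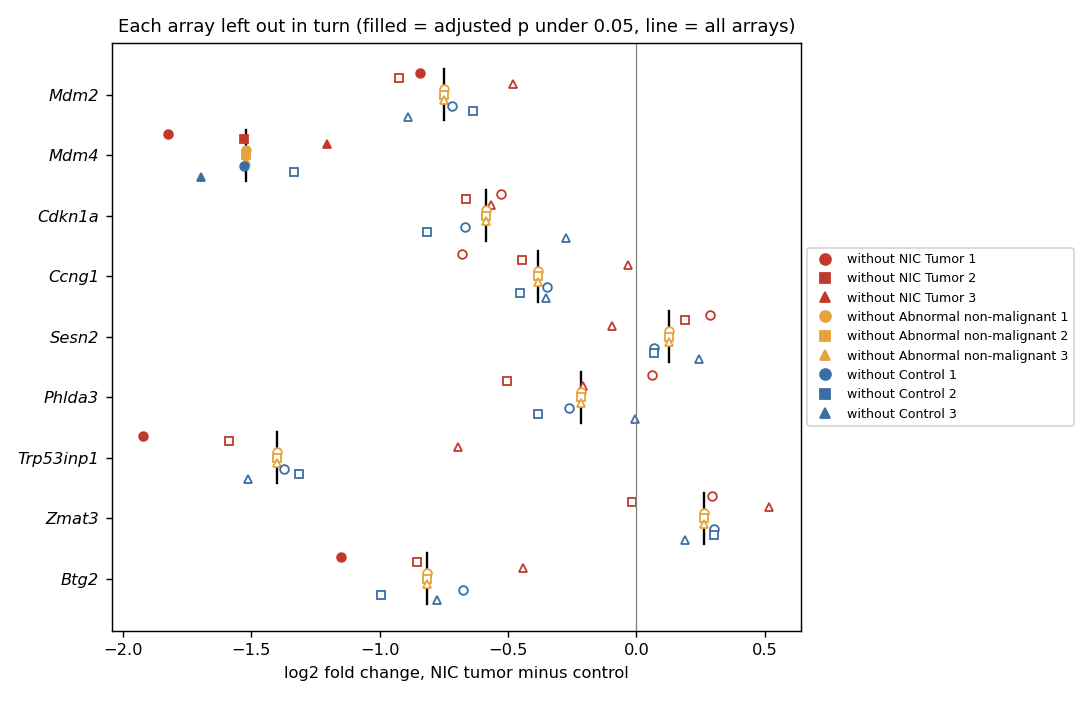
Log2 fold change of each member in the NIC tumors against controls (horizontal axis) with each of the 9 arrays left out in turn, filled where the adjusted p was under 0.05, and a black line for all arrays. Mdm4 is filled in 8 of 9 fits, and Mdm2, Trp53inp1 and Btg2 only without tumor array 1, while Trp53inp1 moves to −0.69 without tumor array 3.

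Other genes of the pathway showed a few calls, most of them lower in the tumors. Of 15 measured targets that act in arrest and repair, 0 were called higher and 2 lower in the tumors against controls (median log2 fold change −0.12). Of all genes 8.49% were called higher and 7.19% lower. At an unadjusted p under 0.05 there were 6 of 15, against 32.2% of all genes. Here 4 log2 fold changes were positive, up to 0.70, and 11 were negative. Sesn1, a sestrin like Sesn2, gave 9.66, 8.2 and 7.66 in the tumors and 10.41, 10.74 and 10.01 in controls, with every tumor lower. It fell by 1.88 ± 0.44 on the log2 scale (SE, adjusted p = 0.0202), and its call ended without tumor 2, control 1 or control 2 (log2 fold change −2.46 to −1.46 over the 9 fits with 1 array left out). Ppm1d, which encodes the phosphatase WIP1 that returns p53 to its resting state, fell by 0.56 ± 0.16 (adjusted p = 0.0437), a call that held only without tumor 1 or tumor 2 (−0.65 to −0.48).

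Pml was the 1 target of this group called in the non-malignant samples against controls, where 1 of 15 was called higher and 0 lower (2.87% and 0.655% of all genes). The PML protein builds nuclear bodies that hold p53 cofactors, and the gene is also induced by interferon. Pml gave 9.1, 9.38 and 9.12 in the non-malignant samples and 8.53, 8.31 and 8.41 in controls, with every non-malignant array higher. It rose by 0.78 ± 0.16 (SE, adjusted p = 0.0262), and its call ended without non-malignant array 2 or 3 or any control (0.69 to 0.84). In the tumors Pml gave 8.3, 8.4 and 8.5 and fell by 0.8 ± 0.16 against the non-malignant samples (adjusted p = 0.0303), the 1 of 15 genes called there, with none higher. This call ended without any non-malignant array, tumor 2, control 1 or control 3 (−0.85 to −0.71).

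Of 12 measured targets that act in cell death, 0 were called higher and 2 lower in the tumors against controls (median −0.44), against 8.49% and 7.19% of all genes. At an unadjusted p under 0.05 there were 8 of 12, against 32.2% of all genes. The list was mixed, with 4 positive log2 fold changes, up to 0.81, and 8 negative ones. The death receptor gene Fas gave 7.3, 6.43 and 7.37 in the tumors, 8.26, 8.26 and 8.2 in the non-malignant samples and 9.14, 9.18 and 8.82 in controls, and the 3 groups did not overlap. It fell by 2.01 ± 0.25 on the log2 scale in the tumors against controls (SE, adjusted p = 0.00142), called with any 1 array left out. Against the non-malignant samples it fell by 1.21 (adjusted p = 0.0343), a call that ended without any 1 non-malignant or control array (−1.37 to −0.905). In the non-malignant samples against controls it stood at −0.81 without passing (adjusted p = 0.147). With 1 array left out it passed there only without tumor array 2 (limma adjusted p = 0.0268). It also passed there in 2 of 10 other alternative settings. Tnfrsf1a, the type 1 receptor of tumor necrosis factor, fell by 1.21 ± 0.25 in the tumors against controls (adjusted p = 0.0138), a call lost without control 1 (−1.39 to −0.95 over the 9 fits).

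The cell death gene Pmaip1, which encodes the BH3-only protein NOXA, gave 4.81, 4.65 and 4.25 in the tumors, all under the 40th percentile of the array, and 5.72, 7.09 and 6.9 in the non-malignant samples. Controls lay between, at 5.29, 5.31 and 6.27 with a mean of 5.62. Against controls neither the tumors, at −1.05 (limma adjusted p = 0.0902), nor the non-malignant samples, at 0.95 (adjusted p = 0.296), were called. Set against the 40th percentile, Pmaip1 was at least 2.54-fold lower in the tumors than in the non-malignant samples, a bound that was not tested. The limma log2 fold change of the values as measured was −2.0 (adjusted p = 0.0269). This call ended without non-malignant array 2 or 3 or tumor 2 or 3. Pmaip1 and Fas were the 2 of 12 cell death genes called lower in the tumors than in the non-malignant samples, with 0 called higher (2.7% and 1.53% of all genes). Of the 12, 0 passed in the non-malignant samples against controls by limma (5 at an unadjusted p under 0.05), against 3.53% of all genes. The 2 with the smallest adjusted p there were Fas and Bid, which links death receptors to mitochondria and stood 0.57 higher (adjusted p = 0.252).

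Of 29 measured regulators and partners of p53, 1 was called higher and 5 lower in the tumors against controls (median −0.2), against 8.49% and 7.19% of all genes. At an unadjusted p under 0.05 there were 14 of 29, against 32.2% of all genes. Positive log2 fold changes numbered 12 and negative ones 17. Bcl6, which encodes a repressor that can silence Trp53, gave 6.8, 6.02 and 5.33 in the tumors, 8.62, 8.67 and 8.52 in the non-malignant samples and 8.58, 9.27 and 8.93 in controls. Every tumor lay below every other array, and Bcl6 fell by 2.88 ± 0.33 against controls (SE, adjusted p = 0.00111) and it also fell by 2.56 ± 0.33 against the non-malignant samples (adjusted p = 0.00577). Both calls held with any 1 array left out, and the second was the 1 of 29 called between tumors and non-malignant samples, against 4.23% of all genes. The acetyltransferase gene Ep300 fell by 1.25 and Ppp1r13b, which encodes the p53 cofactor ASPP1, by 1.49 against controls (adjusted p = 0.0201 and 0.0253). Both of these calls ended without any 1 control, at log2 fold changes of −1.45 to −0.89 and −1.86 to −1.02 with 1 array left out. Npm1, the nucleolar protein nucleophosmin, which can bind MDM2, was the 1 gene called higher, by 1.33 ± 0.31 (adjusted p = 0.0215). Npm1 gave 12.66, 12.91 and 12.93 in the tumors and 11.74, 11.61 and 11.18 in controls, and its call ended without tumor 2 or 3 or control 2 or 3 (1.16 to 1.44).

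In the non-malignant samples against controls 0 of the 29 regulators passed by limma (2 at an unadjusted p under 0.05), against 3.53% of all genes. The 2 with the smallest adjusted p were the damage kinase gene Atm, 0.66 higher (adjusted p = 0.0836), and Usp7, a deubiquitinase of MDM2 and p53, which stood at −0.45 (adjusted p = 0.37). Cdkn2a, which encodes the MDM2 inhibitor ARF, gave 4.34 to 5.14 over the 9 arrays, under the filter, and was not tested (named after its values were seen). The p53 relative Trp73 had a log2 fold change of 0.28 in the tumors and −0.1 in the non-malignant samples against controls, and stood 0.38 higher in the tumors than in the non-malignant samples. Its relative Trp63 gave 4.89, 5.4 and 6.04 in the tumors, 5.13, 5.13 and 5 in the non-malignant samples, all under the 40th percentile, and 5.13, 5.21 and 5.31 in controls. Of these 2 genes 0 passed by limma in any comparison (1 at an unadjusted p under 0.05, between tumors and non-malignant samples).

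**Figure D5:**
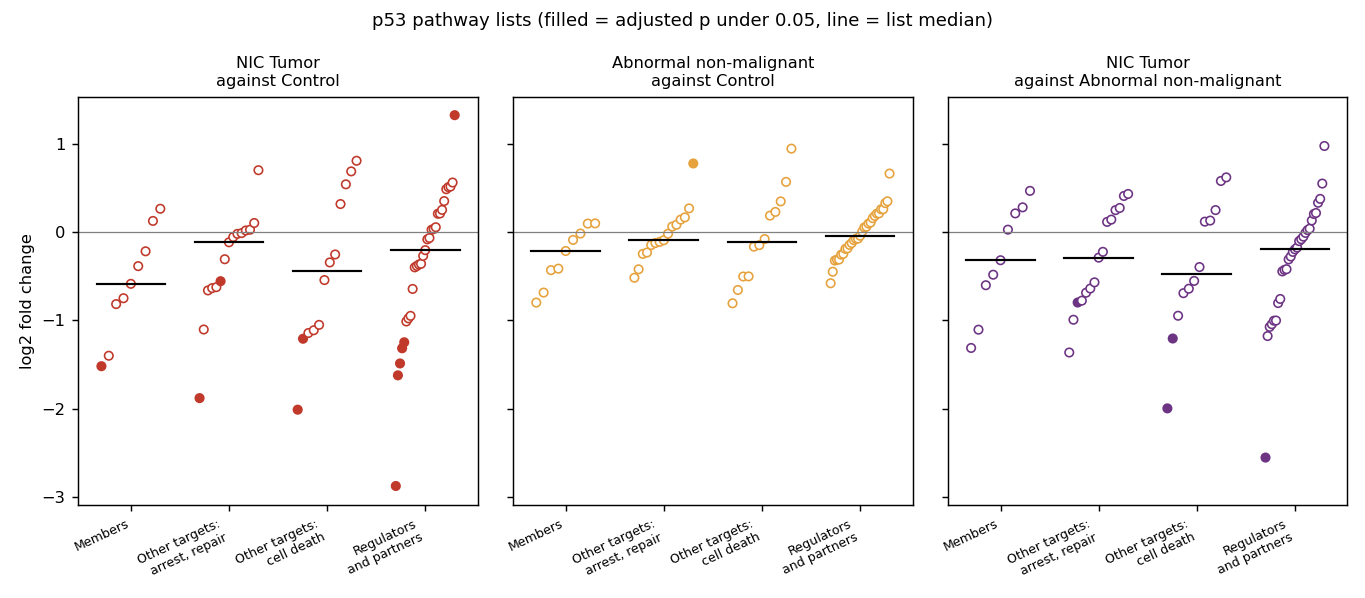
Log2 fold change (vertical axis) of every gene tested in the member list and in 3 other p53 pathway lists, in the NIC tumors against controls (left), the non-malignant samples against controls (middle) and tumors against non-malignant samples (right). Filled points had an adjusted p under 0.05 and black lines are list medians. The lowest points at the left are Bcl6 at −2.88, Fas at −2.01 and Sesn1 at −1.88, and the single filled point in the middle panel is Pml at 0.78.

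Cell cycle genes bound by the DREAM complex, through which p53 and p21 act to shut off division genes, were also measured. Of 17 such genes, 0 were called higher and 5 lower in the tumors against controls (median −0.3), against 8.49% and 7.19% of all genes. At an unadjusted p under 0.05 there were 6 of 17, against 32.2% of all genes, and 3 log2 fold changes were positive and 14 negative. The mean log2 signal of the 17 genes was 9.89, 9.86 and 9.93 on tumor arrays 1, 2 and 3. On controls 1, 2 and 3 it was 10.498, 9.88 and 10.600, and 10.03 to 10.14 in the non-malignant samples. Control 2 thus lay within the tumor range, and the gap in list means came from controls 1 and 3. Each of the 5 called genes was lower in every tumor than in every control. Top2a, a topoisomerase, fell by 0.95 ± 0.14 (SE, adjusted p = 0.00349), the kinetochore gene Cenpf by 1.63 and the proliferation marker Mki67 by 0.93, each called with any 1 array left out. Ccnb2, which encodes cyclin B2, fell by 0.74 (adjusted p = 0.039), a call that held only without tumor 1 or control 2 (−0.97 to −0.6). In the non-malignant samples against controls 0 of 17 passed by limma (2 at an unadjusted p under 0.05), against 3.53% of all genes, and the 2 with the smallest adjusted p, Kif23 and Mki67, stood at −0.59 and −0.57 (adjusted p = 0.162 and 0.19). Between tumors and non-malignant samples 1 of 17 was called, against 4.23% of all genes. This was Top2a, which fell by 0.67 (adjusted p = 0.0351). The call of Top2a ended without any non-malignant array, tumor 2 or 3 or control 1 or 3 (−0.72 to −0.64).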

How the data were processed

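Total RNA of sorted cells was isolated with TRIZOL and RNeasy columns and labelled with biotin, per the labels' protocols. The authors deposited a table of log2 values for 45101 probe sets. Background correction, normalization and summarization are not given in the sources used here, and the log base was read from the values (2.68 to 14.57). Of the probe sets, 34945 carry 1 gene symbol, 932 carry several, 9160 have none or are not listed in the annotation, and 64 are controls. Symbols were updated through Entrez IDs to RefSeq (GRCm38.p6).

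A gene's level is that of its brightest probe set on average over the 9 arrays, and the gene was tested if at least 3 arrays had it above their 40th percentile (13288 genes). Array medians over all probe sets lay between 5.67 and 5.77. After the filter they differed by up to 0.24, under the limit of 0.3 set for further scaling, so none was added. All 9 arrays entered 1 linear model, with a mean for each group, in R 4.3.3 with limma 3.58.1 (variance trend, residual degrees of freedom 6, prior 3.6). Tests were two-sided with Benjamini-Hochberg adjustment over all genes tested, and a gene was called at an adjusted p under 0.05. Simulated data with known changes were used to test these steps first. Tables and figures were made in Python 3.11.15 with pandas 2.3.3 and matplotlib 3.10.9.

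The genes named beyond the 10 members are, in each list and comparison, all called genes up to 4, the 4 with the smallest adjusted p where more were called, or, where none was called, the 2 with the smallest adjusted p. The 3 genes most like each called member in profile are named too. Members and lists were chosen with earlier results of these data known. Alternatives were quantile and median scaling, other filters, the mean of a gene's probe sets, other variance models, a fit on the 2 groups alone, a block for the replicate number, non-malignant arrays 2 and 3 averaged, and each array left out.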

Additional observations from a re-analysis of the deposited data

How the results depend on the processing

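Of 513 values for members under 19 alternative settings, 483 kept their direction and their side of the threshold, 2 lost a call, 14 gained one and 14, none of them called, changed sign. The 2 lost calls are those of Mdm4 in tumors against controls given above. With array weights 2, 4 and 4 members were called for non-malignant samples over controls, tumors over controls and tumors over non-malignant samples, out of 2420, 4884 and 5698 genes. The calls gained were Cdkn1a and Phlda3 lower in the first, Trp53inp1 and Btg2 lower and Zmat3 higher in the second, and Mdm4 and Trp53inp1 lower and Phlda3 and Zmat3 higher in the third. The cause was not tested. With only the 2 groups compared in the fit, 1114, 859 and 108 genes were called in the same order. Averaging non-malignant arrays 2 and 3 gave 218 genes in the non-malignant samples against controls and 73 in tumors against non-malignant samples. With the mean of a gene's probe sets 0 members were called in tumors against controls. With 1 array left out the count of all genes ran from 205 to 708 in the non-malignant samples against controls, from 926 to 4119 in tumors against controls and from 53 to 3399 in tumors against non-malignant samples, and that of members from 0 to 4 in tumors against controls and from 0 to 2 in tumors against non-malignant samples, each highest without tumor 1.

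With the replicate number as a block, 287 genes were called in tumors against non-malignant samples, and counts of members did not move. Arrays of the same number correlated in their deviations from the group means at −0.05 to 0.22, with 3 of 9 pairs over 0.1. In 9 of 18 comparisons of an array with the 3 arrays of another group, the correlation was highest for its own number. These values do not settle whether the numbers pair the samples, and the main fit did not use them as pairs.

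The sign changes were small. In the non-malignant samples against controls, Trp53inp1 stood at 0.10 with the mean of its probe sets, Ccng1 at −0.10 with array weights and −0.081 to 0.27 with 1 array left out, and Zmat3 at 0.025 with arrays 2 and 3 averaged and −0.098 to 0.059 with 1 array left out. In tumors against controls, Phlda3 stood at 0.18 with array weights and −0.50 to 0.061 with 1 array left out, Sesn2 at −0.10 to 0.29 and Zmat3 at −0.016 to 0.52. In tumors against non-malignant samples, Sesn2 stood at −0.11 with array weights and −0.19 to 0.19 with 1 array left out.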
